A study of Mus musculus with 8 samples.

Results

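Gluconeogenesis and hepatic glucose handling were followed through 9 genes, chosen by symbol from the array annotation: Pcx, Pck1, Fbp1, G6pc, Ppargc1a, Tat, Igfbp1, Pklr and Slc2a2. They were read by 11 of the 45018 features, with 2 features each for Ppargc1a and Slc2a2 and 1 for each of the others. All 11 features had a value on all 8 arrays, so that the 9 genes stand among 15346 genes tested. The choice used symbols, made with earlier results of these data known.

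The series asks how livers of male and female mice differ after a challenge with the cytokine IL1-beta and without it. Its 4 groups of 2 arrays each are female IL1-beta, male IL1-beta, female control and male control, all of the strain C3H/HeN at 8 weeks of age. IL1-beta animals received 25 µg/kg of the recombinant murine cytokine and controls received vehicle, in both cases into the peritoneum on alternate days over 2 weeks, and livers were collected 1 h after the last dose. On every array, per the labels, liver RNA carries Cy5 and a common pool of RNA from 11 mouse cell lines carries Cy3, and the value is the log ratio of liver over pool, given here on the log2 scale. The labels call the 2 arrays of a group biological replicates and say nothing of animals or pooling, so p-values measure the spread between these arrays.

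The liver holds blood glucose up between meals by making new glucose and releasing it. Pyruvate carboxylase (Pcx) and phosphoenolpyruvate carboxykinase (Pck1) carry pyruvate into the pathway, fructose-1,6-bisphosphatase (Fbp1) works in its middle, and glucose-6-phosphatase (G6pc) releases free glucose at its end. Glucagon, glucocorticoids and fasting raise several of these genes through cAMP-responsive factors, FOXO factors and the coactivator PGC-1alpha (Ppargc1a), and insulin lowers them. Tyrosine aminotransferase (Tat) and IGF binding protein 1 (Igfbp1) are classical targets of the same hormones. Liver pyruvate kinase (Pklr) runs the opposite, glycolytic way, and GLUT2 (Slc2a2) lets glucose across the hepatocyte membrane.

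The control arrays did not carry the profile their labels imply, and this touches each result below that uses them. Medians of 8 hepatocyte markers (Alb, Ttr, Apoh and others) ran at 6.33 to 6.79 under IL1-beta but at -0.37 to 0.33 in the controls. Xist, the RNA of the inactive X chromosome, read 2.11 and 1.52 in females and -4.32 and -4.36 in males under IL1-beta. In the controls it ran against the labels, with -4.94 and -4.57 where the label is female and 5.40 and 5.78 where it is male. The 3 Y-linked genes measured ran against the labels too. Eif2s3y read 10.03 and 10.80 in controls labelled female and -9.17 and -10.56 in those labelled male, Kdm5d 4.98 and 5.25 in controls labelled female and -4.52 and -4.72 in those labelled male, and Uty 5.34 and 4.85 in controls labelled female and -5.64 and -5.96 in those labelled male. Under IL1-beta all 3 were lower in females, as labelled. Across tested genes, arrays labelled female and male control correlated negatively, with r between -0.72 and -0.48 over the 4 pairs of arrays. All 4 sex chromosome genes thus go with the turned sign and against the labelled one. The labels' own account of groups and dyes gives the labelled sign, and no source used here explains the conflict. A control difference is given as labelled, female minus male, and also with its sign turned and divided by 2, as for 2 mirrored readings of 1 difference. Exact zeros, taken as missing values, numbered 4646 to 5115 on the IL1-beta arrays and 7933 to 10324 on the control arrays.

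Upstream sequence is shown for G6pc and Igfbp1, 2 known FOXO targets that lay on opposite sides on the control arrays, and for Pck1 and Ppargc1a, genes known to answer cAMP. All 9 genes matched RefSeq promoters (GRCm38.p6), with 11 start sites in all, and the 250 bases before each start were read on the strand of the gene. Capitals mark TTACGT, found in cAMP-responsive elements, and TGTTTTG, the core of the insulin response sequence that FOXO factors bind, on either strand (ACGTAA and CAAAACA on the other). The G6pc window is chr11:101367466-101367715 (plus strand), that of Igfbp1 chr11:7197537-7197786 (plus), that of Pck1 chr2:173152823-173153072 (plus) and that of Ppargc1a chr5:51567726-51567975 (minus).
G6pc: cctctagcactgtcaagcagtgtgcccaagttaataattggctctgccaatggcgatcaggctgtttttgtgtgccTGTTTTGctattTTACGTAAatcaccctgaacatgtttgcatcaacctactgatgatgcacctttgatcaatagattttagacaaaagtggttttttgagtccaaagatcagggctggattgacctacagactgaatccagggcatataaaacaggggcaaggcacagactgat
Igfbp1: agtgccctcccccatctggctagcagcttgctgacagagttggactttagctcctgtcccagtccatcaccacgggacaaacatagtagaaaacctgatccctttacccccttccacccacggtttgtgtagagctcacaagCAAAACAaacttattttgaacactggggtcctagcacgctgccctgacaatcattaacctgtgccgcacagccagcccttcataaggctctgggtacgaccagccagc
Pck1: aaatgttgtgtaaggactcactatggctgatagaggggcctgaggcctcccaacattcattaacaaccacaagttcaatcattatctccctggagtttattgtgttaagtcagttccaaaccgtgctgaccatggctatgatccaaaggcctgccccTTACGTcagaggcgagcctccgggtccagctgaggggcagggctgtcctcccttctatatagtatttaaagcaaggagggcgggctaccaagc
Ppargc1a: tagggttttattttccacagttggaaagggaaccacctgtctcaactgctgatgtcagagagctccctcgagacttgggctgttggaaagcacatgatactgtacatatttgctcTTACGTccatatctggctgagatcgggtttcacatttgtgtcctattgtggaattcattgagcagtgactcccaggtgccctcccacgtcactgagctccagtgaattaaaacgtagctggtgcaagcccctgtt

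G6pc alone of the 9 genes held both motifs: TGTTTTG began at position -174 from the start site, and TTACGT, at -162, overlapped its own reverse complement. Igfbp1 held CAAAACA at -108 and no TTACGT. Pck1 and Ppargc1a held TTACGT at -93 and -135, in that order, and no TGTTTTG. Of the 11 windows of these genes, 3 held TTACGT and 2 held TGTTTTG on either strand, all of them among those shown. The Tat window, not shown, held neither motif. Of 32851 RefSeq windows of 250 bases, 2.40% held TTACGT and 5.56% held TGTTTTG. The full palindrome TGACGTCA, which contains neither of them, was in 1.55% of windows and in 0 of the 11 windows of these genes. A match describes the letters only.

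Under IL1-beta the enzymes of gluconeogenesis were far above the cell-line pool on all 4 arrays. Pck1 had log2 ratios of 7.41 and 7.77 in females and 7.51 and 8.27 in males, a mean of 7.74 or 214-fold over the pool. Fbp1 read 6.88 and 7.41 in females and 7.21 and 7.67 in males. In both genes the arrays of the sexes overlapped. Pcx, the mitochondrial entry enzyme, read 3.36 and 2.86 in females and 2.66 and 2.99 in males, again with overlap. G6pc was the enzyme in which the sexes lay apart, with 4.82 and 4.78 in females and 3.52 and 2.50 in males. The female arrays almost coincided, while the male arrays differed by 1.02, which is above the 95th percentile of that gap over all genes (0.957). These ratios are set by liver and pool together, so they do not rank the genes by RNA amount.

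The regulator and the hormone targets also lay above the pool. Ppargc1a read 3.36 and 2.37 in females and 1.77 and 1.99 in males under IL1-beta, and the sexes did not overlap. Its 2 features kept the same order of arrays, with 4.12 and 2.85 in females and 2.30 and 2.57 in males for the first, and 2.60 and 1.90 in females and 1.23 and 1.42 in males for the second. Female array 1 was the highest at both features, and the value without that array is given below. Tat, which breaks down tyrosine, read 5.48 and 5.38 in females and 5.22 and 5.65 in males. Igfbp1, a secreted binding protein that insulin lowers, read 7.28 and 7.61 in females and 7.24 and 7.61 in males. For Tat and Igfbp1 the arrays of the sexes overlapped.

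Pklr and Slc2a2 showed small, opposite gaps. Pklr read 4.19 and 4.48 in females and 3.99 and 3.75 in males, with both female arrays above both male ones. Slc2a2 read 6.66 and 6.93 in females and 7.04 and 7.14 in males, with both female arrays below. Its 2 features differed in level (5.25 to 5.58 and 8.07 to 8.84 over the 4 arrays), and the sexes did not overlap at the first and touched at 8.50 at the second.

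**Figure D1:**
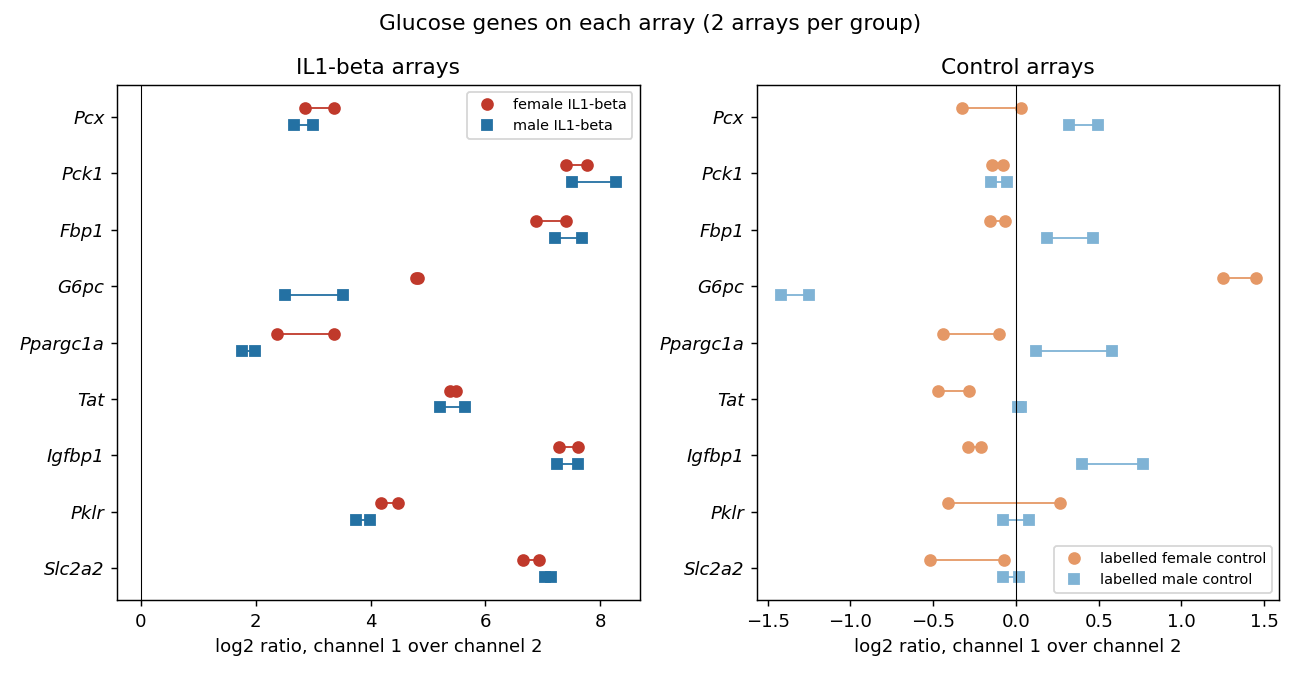
Log2 ratios of the 9 genes on each of the 8 arrays (points; lines join the 2 arrays of a group), IL1-beta arrays on the left and control arrays on the right, with different axis ranges. G6pc and Ppargc1a separate the sexes most under IL1-beta, and G6pc is the gene farthest from 0 on the control arrays, at 1.45 and 1.25 on those labelled female and -1.25 and -1.42 on those labelled male.

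The first comparison asks which of these genes differ between female and male livers under IL1-beta, with a limma fit of all 8 arrays and Benjamini-Hochberg adjustment over the 15346 genes. None of the 9 genes passed an adjusted p of 0.05, against 0.163% of all genes (25 genes, 0.104% higher in females and 0.0586% lower). At an unadjusted p under 0.05 G6pc and Ppargc1a passed, as did 1270 of all genes. The female minus male difference of G6pc was 1.79 ± 0.33 (SE, n = 2 arrays per sex), or 3.45-fold, with a 95% interval of 1.01 to 2.56 and limma adjusted p = 0.156. By size this difference ranked 111th of 15346. Ppargc1a stood at 0.98 ± 0.35, with an interval of 0.15 to 1.82 and limma adjusted p = 0.490. Without female IL1-beta array 1 the Ppargc1a value was 0.49, and without male IL1-beta array 2 the G6pc value was 1.28.

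For the remaining genes the fit left room for moderate differences in either direction. Pklr stood at 0.47 with a 95% interval of -0.17 to 1.10, and Pcx at 0.28 with an interval of -0.32 to 0.88. Pck1, Fbp1 and Slc2a2 each stood at -0.30, with intervals of -0.97 to 0.37, -0.92 to 0.33 and -0.82 to 0.22. Igfbp1 stood at 0.02 (interval -0.54 to 0.57), and the 2 female and 2 male arrays of Tat had the same mean, 5.43 (interval of the difference -0.49 to 0.49). In total 4 of the 9 genes (G6pc, Ppargc1a, Pklr and Slc2a2) had arrays that did not overlap between the sexes, against 36.9% of all genes. With the 4 control arrays left out of the fit, 0 of the 9 genes passed in limma, against 0.0652% of all genes, and the adjusted p was 0.348 for G6pc and 0.595 for Ppargc1a.

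The second comparison is the sex difference on the control arrays. As labelled, G6pc read 1.45 and 1.25 in female and -1.25 and -1.42 in male controls. The difference was 2.68 ± 0.33 (limma adjusted p = 0.00297), with all 4 arrays about equally far from 0. Igfbp1 lay the other way, at -0.21 and -0.29 on the arrays labelled female and 0.40 and 0.77 on those labelled male. Its difference was -0.83 ± 0.23 (limma adjusted p = 0.0460). These 2 genes of 9 passed, against 21.4% of all genes (9.3% higher and 12.1% lower as labelled), so the share is near the background. In the turned and halved form G6pc stood at -1.34 ± 0.16 and Igfbp1 at 0.42 ± 0.12, with the same p and, over all genes, 12.1% higher and 9.3% lower. The turned and halved form counts 4 independent control arrays. On these arrays same-number pairs of opposite label correlated at r = -0.72 and -0.59, and pairs of unlike number at -0.48 and -0.52, and the labels do not say whether same-number arrays share RNA. With the 2 pair means in place of 4 arrays, 1087 genes passed instead of 3284, and the limma adjusted p was 0.0311 for G6pc and 0.188 for Igfbp1. With the sign turned Xist is positive, so G6pc lay on the side opposite to Xist and Igfbp1 on the side of Xist. The Igfbp1 call was lost under 15 of 19 alternatives, with adjusted p between 0.00801 and 0.194 over all 19. The G6pc call held under all 19, with limma adjusted p between 6.73e-05 and 0.0311.

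The other 7 genes did not pass on the control arrays. Ppargc1a read -0.44 and -0.10 in controls labelled female and 0.58 and 0.12 in those labelled male, without overlap. Pcx read 0.03 and -0.33 against 0.32 and 0.50, and Fbp1 -0.16 and -0.07 against 0.47 and 0.19; in each pair of sets the arrays labelled female are named before those labelled male. Tat, at -0.47 and -0.29 where the label is female and 0.01 and 0.03 where it is male, lay the same way, as all 4 of these genes had the lower values under the female label. Slc2a2 and Pklr overlapped, with -0.07 and -0.52 against -0.08 and 0.02 for Slc2a2 and 0.27 and -0.41 against -0.08 and 0.08 for Pklr, in the same order of labels. In the turned and halved form Ppargc1a stood at 0.31 (95% interval -0.11 to 0.73) and Pcx at 0.28 (-0.02 to 0.58). Fbp1 stood at 0.22 (-0.09 to 0.53), Tat at 0.20 (-0.05 to 0.45) and Slc2a2 at 0.13 (-0.12 to 0.39). Pklr stood at 0.04 and Pck1 at 0.00, with intervals of -0.28 to 0.36 and -0.33 to 0.34. Pck1 read -0.14 and -0.08 on the arrays labelled female and -0.15 and -0.06 on those labelled male, the closest set of values among the 9 genes. In 6 of 9 genes (G6pc, Igfbp1 and the 4 above) the labelled groups did not overlap, against 67.4% of all genes. Markers of several cell types passed on the side of Xist, where 12.1% of all genes passed (21.4% on either side). Of 9 Kupffer cell markers 7 passed (median 0.87), of 7 endothelial markers 3 (median 0.41) and of 5 neutrophil markers 2 (Camp at 2.52). Of 4 bile duct markers 2 passed, of 3 pancreas markers 2 and of 8 hepatocyte markers 2, the last near the share of all genes. In these short lists none passed on the other side. All 7 adipocyte markers tested (Plin1, Adipoq, Cidea, Cidec, Fabp4, Pparg and Retn) passed, with a median of 2.83. The adipocyte median per array was -2.72 and -3.22 in controls labelled female, 0.74 and 4.15 in controls labelled male, and 0.31 to 1.04 under IL1-beta. Lep, Ucp1 and Cfd of that list were not tested. In these bulk samples fewer cells of a type and less RNA per cell cannot be told apart, and the part of these cell types in the values of the 9 genes was not tested. G6pc lay on the other side from the cell type markers that passed. Of 14 cell cycle genes 1 passed, Ccnb2 at -0.75 turned and halved (limma adjusted p = 0.0129), on the side of G6pc.

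**Figure D2:**
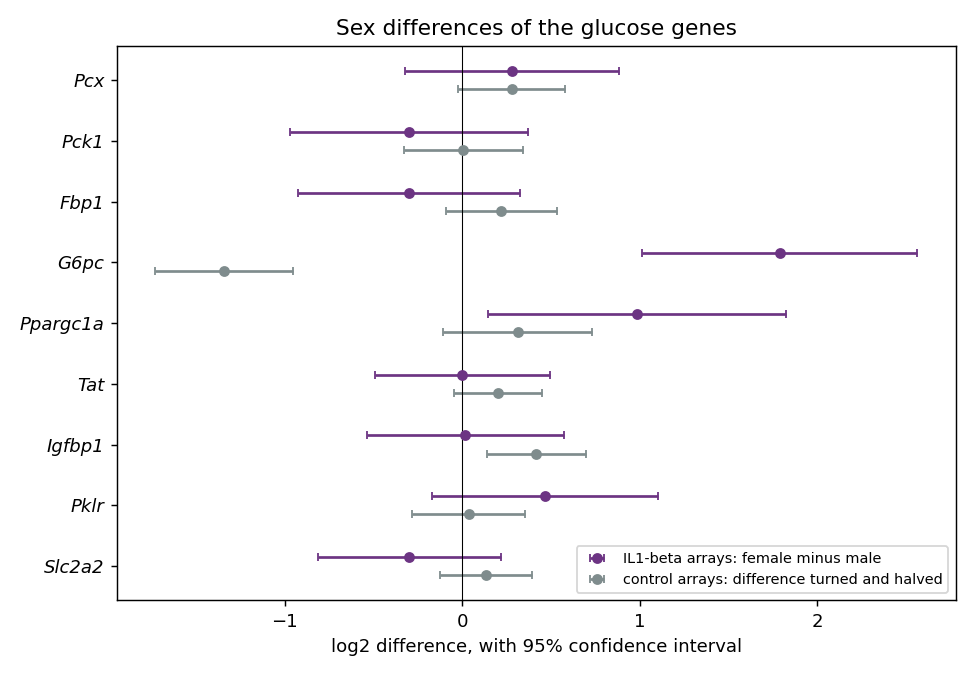
Log2 sex differences of the 9 genes with 95% confidence intervals from limma, female minus male on the IL1-beta arrays (purple) and the turned and halved difference of the control arrays (grey). G6pc lies at 1.79 and -1.34, and for the 8 other genes the 2 intervals overlap.

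The third comparison is whether the sexes differ in the same way under IL1-beta and on the control arrays. With the control difference turned and halved, G6pc stood at 3.13 ± 0.37 (limma adjusted p = 0.0383), IL1-beta minus control. It was the 1 gene of 9 to pass, against 0.209% of all genes. Of the 32 genes that passed, 4 were positive (0.0261% of all genes) and 28 negative (0.182%). G6pc was also 1 of 2 genes, with the predicted gene Gm33989, that stood at 1 or more in females under IL1-beta and at -1 or less on the turned control arrays. The opposite pattern held for 10 genes, while 102 genes stood at 1 or more in both and 107 at -1 or less in both. The thresholds for this count and the name Gm33989 were taken after the values had been seen.

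The G6pc call depended on each of the 8 arrays and on the direction given to the control arrays. Leaving out any 1 of the 8 arrays ended it: the value stayed between 2.62 and 3.64, and the limma adjusted p lay between 0.0651 and 0.213. A replicate block gave a limma adjusted p of 0.0777, and averaging the control arrays by replicate number gave 0.107. With the control difference as labelled, no gene of the 9 passed, against 14.3% of all genes (8.61% positive and 5.65% negative), and G6pc stood at -0.90 ± 0.46 (limma adjusted p = 0.238). As labelled but halved, G6pc stood at 0.45 ± 0.37 (limma adjusted p = 0.529). If the labels hold, against Xist and the Y-linked genes, the G6pc values of female arrays lay above those of male arrays in both conditions. If the sign is turned as Xist has it, G6pc lay on the female side under IL1-beta and on the other side on the control arrays.

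**Figure D3:**
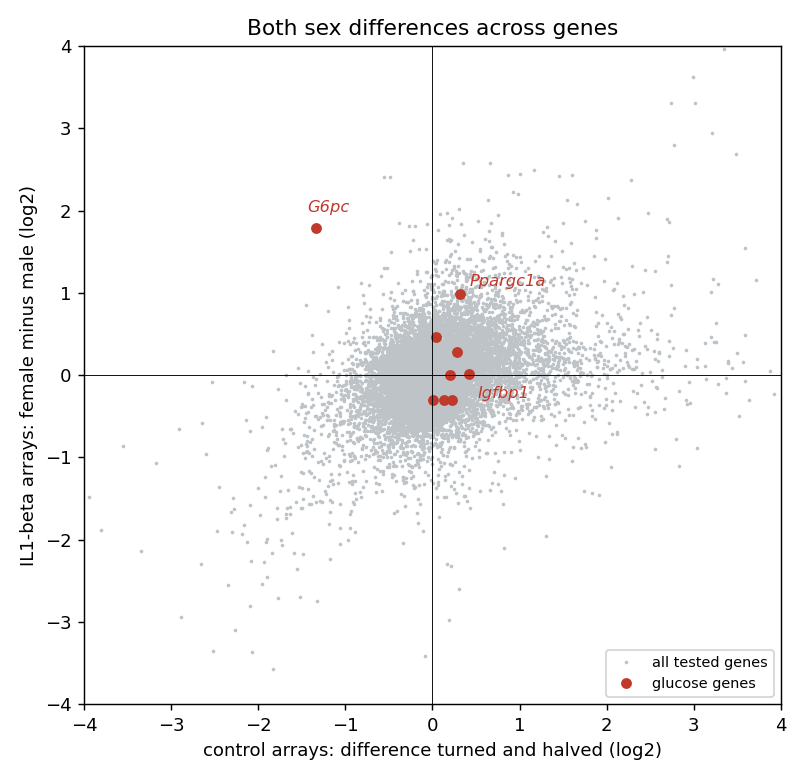
Female minus male log2 difference on the IL1-beta arrays (vertical) against the turned and halved difference of the control arrays (horizontal) for all tested genes (grey) and the 9 glucose genes (red). The axes end at 4, which leaves out 26 genes. G6pc sits apart from the other 8 glucose genes, at -1.34 and 1.79. Ppargc1a lies at 0.31 and 0.98, a difference under IL1-beta that ranks within the largest 3.94% of all genes. The remaining glucose genes differed less under IL1-beta.

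The other 8 genes had interactions between -0.52 and 0.67, none past the threshold in this form. Ppargc1a stood at 0.67 (95% interval -0.26 to 1.61) and Pklr at 0.43 (-0.28 to 1.14). Fbp1, Slc2a2, Igfbp1, Pck1 and Tat were negative, from -0.52 for Fbp1 to -0.20 for Tat, each with an interval that includes 0, and Pcx stood at 0.00. As labelled, Ppargc1a had the largest interaction of the 9, at 1.61 ± 0.50 (limma adjusted p = 0.0773).

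**Figure D4:**
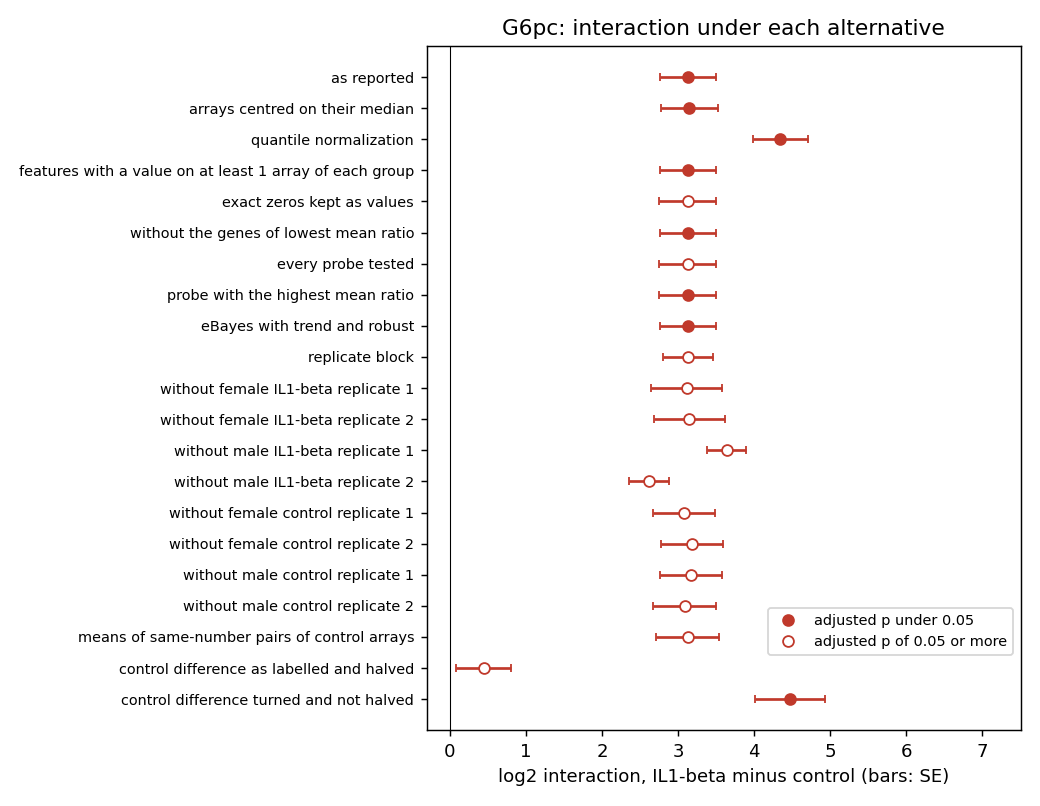
The G6pc interaction (log2, IL1-beta minus control, with standard error) as reported and under each alternative; filled points have an adjusted p under 0.05. All values are positive and most lie near 3.1, but no setting without an array is filled, and the value with the control difference as labelled and halved is 0.45.

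Other genes of glucose handling were taken from 6 lists and read as background to the 9 genes. Of the 96 tested, none passed for the sex difference under IL1-beta, against 0.163% of all genes. Slc2a4, the insulin-dependent glucose transporter of fat and muscle, stood at 3.63 ± 0.46 (limma adjusted p = 0.0568), with 3.53 and 2.11 in females and -1.08 and -0.54 in males. Got1, an aspartate aminotransferase, stood at 1.55 and read 2.49 and 2.07 in females and 0.86 and 0.60 in males. Ppp1r3c, which targets a phosphatase to glycogen, stood at -1.34, with 3.15 and 3.39 in females and 4.42 and 4.80 in males. Ppp1r3g, of the same family, stood at 1.63, with 5.08 and 5.05 in females and 2.62 and 4.25 in males. Foxo3, a FOXO factor, stood at 0.86, with -0.43 and -0.22 in females and -1.15 and -1.22 in males. Igfbp2, a relative of Igfbp1, stood at -1.12, with 2.82 and 2.02 in females and 3.39 and 3.69 in males. These genes are those of smallest p in their lists, so that the sexes do not overlap in them, as in 36.9% of all genes, follows from that choice. Hnf4a, a hepatocyte factor that drives G6pc and Pck1, stood at -0.74. Pdk1, a pyruvate dehydrogenase kinase, stood at 0.71, Slc5a1, a sodium-coupled glucose transporter, at 0.54, and Igfals, which holds IGF complexes in blood, at -0.18. The urea cycle enzymes Ass1 and Otc stood at 0.42 and -0.48. Apart from Slc2a4, these 11 genes had limma adjusted p between 0.0758 (Got1) and 0.936 (Igfals).

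On the control arrays, turned and halved, 8 of 25 glycolysis and gluconeogenesis genes passed, 7 on the side of Xist and 1 opposite, against 21.4% of all genes. Pdk4, a kinase that shuts off pyruvate dehydrogenase, stood at 3.71 ± 0.25, muscle-type Fbp2 at 1.91 ± 0.38, muscle pyruvate kinase Pkm at 0.93 ± 0.11 and Got1 at 0.67 ± 0.11. The list median was 0.07, against -0.02 over all genes. Among 33 regulators 2 passed, both on the side of G6pc: Onecut1, a hepatocyte factor (-0.55 ± 0.09), and Trib1, a pseudokinase (-0.47 ± 0.09). Of 13 glycogen genes Gyg (0.86) passed on the side of Xist and Ugp2 (-0.40) opposite. Of 8 glucose transporters Slc2a4 (2.99) and Slc2a3 (0.70) passed. Of 7 genes of IGF binding Igfbp6 (1.02), Igfals (0.52) and Igfbp2 (-0.50) passed, and of 10 genes of amino acid catabolism Hpd (0.53) passed. Their limma adjusted p ran from 0.000286 (Pdk4) to 0.0477 (Igfbp2). In the interaction with the turned control difference none of the 96 passed, against 0.209% of all genes. The 2 genes of smallest p in each list were Pdk4 (-2.56) and Pkm (-0.997), Ppp1r3c (-1.18) and Gyg (-0.71), Trib1 (1.12) and Hnf4a (-0.92), Hpd (-0.69) and Hgd (-0.44), Igfbp6 (-0.88) and Igfals (-0.70), and Slc2a1 (0.56) and Slc2a3 (-0.57). Their limma adjusted p lay between 0.144 (Trib1) and 0.671 (Slc2a3). Under IL1-beta the 7 adipocyte markers had a median difference of -0.007 (range -1.10 to 0.50), beside 3.63 for Slc2a4. On the control arrays, turned and halved, their median was 2.83, beside 2.99 for Slc2a4 and 3.71 for Pdk4. The first array labelled male control had a marker median of 0.74, beside 3.37 for Slc2a4. There the markers ran from -0.60 (Cidec) and -0.10 (Plin1) up to 1.25 (Retn) and 2.19 (Cidea). Fat also expresses Slc2a4 and Pdk4, and its part in their values was not tested.

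**Figure D5:**
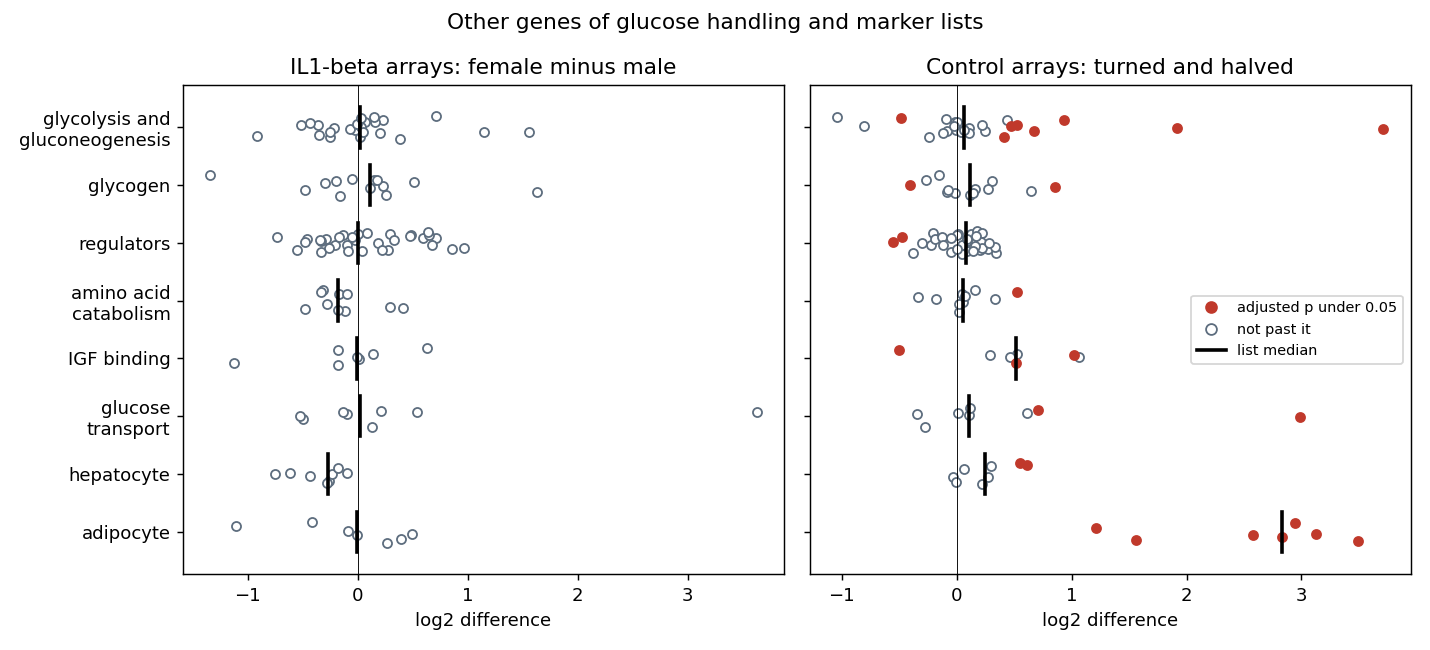
Log2 differences of single genes (points) in 6 lists of glucose handling and in hepatocyte and adipocyte markers, female minus male under IL1-beta on the left and the turned and halved control difference on the right; red points passed and black bars are list medians. No point is red on the left, and all 7 adipocyte markers are red on the right.

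The genes closest to each of the 9 over the 8 arrays were found by Euclidean distance of log2 ratios. Nearest to G6pc were Angptl8, a hormone of fed liver (distance 2.01), Olfm3 (2.01) and Car3 (2.09). Angptl8 read 3.33 and 3.95 in females and 3.27 and 3.25 in males under IL1-beta. In the controls it read 1.51 and 0.86 where the label is female and -1.68 and -1.01 where it is male. Its control arrays thus lay on the same sides as those of G6pc, and under IL1-beta its female arrays lay above its male arrays by less than those of G6pc. Each of the other genes had a nearer neighbour, at distances of 0.26 (Tat with Serpina10) to 0.69 (Pck1 with Apoh). Ppargc1a lay nearest to Zfp385b (0.36), and Fbp1 to Pon1 (0.34).

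The IL1-beta effect itself could not be read from these arrays. As labelled and averaged over the sexes, all 9 genes were higher under IL1-beta, by 2.33 for Ppargc1a to 7.85 for Pck1, as were 31.6% of all genes, while 37.6% were lower and 69.2% passed in either direction. Hepatocyte markers stood at a median of 6.58 in the same contrast. Since the control arrays lack the profile of liver over pool, the cytokine effect and that difference between arrays cannot be told apart.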

How the data were processed

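Mouse liver RNA was hybridised to 8 Agilent arrays of 2 colours, 2 arrays per group. The authors deposited 1 log10 ratio per feature and array, liver in Cy5 over reference pool in Cy3 per the labels. The submitters' processing notes name Agilent Feature Extraction. Its version and its handling of background and dye bias are not given in these sources. Nor is the base of the logarithm: base 10, the form that software writes, was assumed. Another base would scale every log2 value alike and change no p-value. It would change the folds and the counts that use a cut on the log2 value. Signal over background is unknown, and the number of arrays limits the precision.

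Values were multiplied by 3.32 to give log2 ratios, and exact zeros were taken as missing. Of 45018 features, 32366 had a value on all arrays, and 26218 of these carried 1 gene symbol, updated through gene IDs. A gene is the mean of its features. Group means of 15346 genes were fitted in R 4.3.3 by limma 3.58.1 (moderated two-sided tests, with residual degrees of freedom of 4 and a prior of 2.88), with Benjamini-Hochberg adjustment over all genes and a threshold of 0.05. Errors are standard errors. No slide or scan date was used here.

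The 9 genes, the lists and the tests were chosen with earlier results of these data known. Named list genes are up to 4 passing genes of smallest p, or the 2 of smallest p where none passed. For each of the 9 genes the 3 nearest genes were found. The replicate numbers did not meet the rule for pairing samples (no correlation over 0.1): deviations from group means correlated at -0.41 (female with male IL1-beta), -0.43 (female with male control) and -0.04 to 0.05 otherwise. With the sign of 1 control group turned, the control value is positive, so control arrays were also averaged by number. On simulated data with 200 changed genes of 15346, the fit found 63% of changes of 2 (log2) for the difference under IL1-beta, 90.5% for the turned control difference and 58% for the interaction. Of changes of 1 it found 0%, 64.5% and 0%, in that order. Changes of the control difference were set on the halved scale. The simulated arrays varied independently, while on the real control arrays deviations correlated at -0.43 and 21.4% of genes passed. The shares found by simulation need not hold for these data.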

Additional observations from a re-analysis of the deposited data

Results flagged for a closer look

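G6pc was singled out because its sex difference under IL1-beta and the turned and halved one on the control arrays differed by the test of the interaction, at 3.13 (limma adjusted p = 0.0383). The call was lost when any 1 array was left out and when the control difference kept its labelled sign. The cause was not tested. Groups of 2 arrays allow no search for outlying arrays.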

How the results depend on the processing

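G6pc kept its direction under IL1-beta, on the control arrays (turned) and in the turned interaction under the 18, 19 and 20 alternatives run; the labelled interaction, a contrast of its own, was negative. Its difference under IL1-beta passed under none (range 1.12 to 2.30). Its interaction stayed past the threshold under 7 of 20 alternatives. It was lost with exact zeros kept (adjusted p = 0.0988), with every probe tested (0.0590) and in each fit that left out an array. The replicate block (3.13) and pair means of control arrays, an alternative added after seeing the data, ended it too. With every probe tested, 59 of 26218 probes passed for the sex difference under IL1-beta. Genes passing for that difference numbered 5 after quantile normalization and 10 in a fit of the compared groups. Those on the control arrays, in either form, numbered 6765 after quantile normalization and 2058 in a fit of those arrays. At least 2-fold left 884 in the halved form, and pair means left 1087. For the labelled interaction the counts were 4103 after quantile normalization, 1443 without the genes of lowest ratio and 1383 with the replicate block. For the turned interaction they were 628 after quantile normalization, 11 with zeros kept and 19 without the genes of lowest ratio, and 19 of 26218 probes with every probe tested. The replicate block left 0 and pair means 9. Added after seeing the data, the control difference as labelled and halved gave 770, turned and not halved 561, and a block with crossed pairing 15. IL1-beta minus control gave 6614 after quantile normalization, 6867 without the genes of lowest ratio and 17263 probes. With 1 array left out, the ranges were 7 to 23 (under IL1-beta), 1516 to 3130 (control arrays), 837 to 1579 (labelled interaction), 0 to 27 (turned interaction) and 9740 to 10221 (IL1-beta minus control).

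Of the 9 genes, 5 passed on the control arrays after quantile normalization, beside 6765 of all 15346 genes. Among the 5 were Fbp1, Tat and Pcx (0.46, 0.39 and 0.57 turned and halved). In the labelled interaction 2 of the 9 passed, beside 4103 of all 15346 genes. Both shares are near those of all genes under that setting. Only G6pc, 1 gene, passed on the control arrays where features needed 1 value per group, with zeros kept, by single probes, by the probe of highest ratio, with either block, at 2-fold, with the compared groups alone, with pair means and without any 1 array. For the turned interaction 0 passed with zeros kept, by single probes, with either block, with pair means, with the labelled sign halved and without any 1 array. The labelled interaction had 0 to 1 with 1 array left out. Values that changed sign were small and had not passed. After quantile normalization the turned interactions of Ppargc1a and Pcx were -0.024 and -0.41. With the labelled sign halved those of Igfbp1 and Tat were 0.43 and 0.20, and unhalved that of Pcx was -0.28. With 1 array left out, Igfbp1 (-0.17 to 0.20) and Pck1 (-0.68 to 0.083) crossed 0 under IL1-beta, as did Pck1 (-0.019 to 0.028) and Pklr (-0.13 to 0.21) on the control arrays. In the turned interaction Pck1 (-0.69 to 0.079), Tat (-0.42 to 0.016) and Pcx (-0.25 to 0.25) did. The cause was not tested. A lone array left in a group was assumed to vary like the other groups. Centring arrays on their median changed no call of the 9 genes in these 3 tests.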
